A study of Homo sapiens with 12 samples.

Results

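The control line (NT) and the TSPAN14-targeted line (TKO) of TeloHAEC cells were compared on plates coated with IgG, the state without added Notch ligand. The 4 libraries of these groups, 2 per line, were chosen from the 12 libraries of the series by the line and the coating in their column names. TeloHAEC cells are endothelial cells of the human aorta that telomerase has made immortal. Per the labels, NT cells have a wild-type genotype and TKO cells were made with Cas9 and a guide RNA against TSPAN14. IgG was coated at 2.5 mg/mL for both lines, RNA was taken after 24 h, and polyadenylated RNA was purified from 140 ng of total RNA. The remaining libraries come from the same lines on Delta-like ligand 4 (DLL4), a membrane ligand of Notch receptors, and from a NOTCH1-targeted line (NKO) on both coatings. The labels do not say whether an edited line is a clone or a pool of cells. The edit and other differences between the lines therefore cannot be told apart. Libraries are labelled as biological replicates without word of separate cultures, and the p-values measure the spread between these libraries, which may be technical.

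The tetraspanin TSPAN14 belongs to the TspanC8 group, whose members bind the protease ADAM10, help it to leave the endoplasmic reticulum and influence which substrates it cuts. ADAM10 makes the ligand-dependent cut in Notch receptors. Gamma-secretase then releases the receptor's intracellular domain, which joins the DNA-binding protein RBPJ and activates genes of the HES and HEY repressor families. In the endothelium this pathway is known for arterial identity and for restraining sprouting tip cells.

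The deposited values are TPM, a transcript abundance corrected for length and library size, which keeps no record of read number, so the depth is unknown. Differences are given as TKO minus NT on the log2(TPM + 1) scale, which understates changes of genes near 0. A gene is called where the adjusted p of limma, a linear model fitted over all 12 libraries, was below 0.05. Across the 13299 genes tested, Pearson's r of the log2 values was 0.991 between the NT libraries, 0.987 between the TKO libraries and 0.949 to 0.957 for NT against TKO on IgG. KPNA2P2, a processed pseudogene, took 1.47% and 0.369% of the TPM of the NT libraries and 1.81% and 5.61% of the TKO libraries. For 2 libraries against 2 the smallest p of an exact two-sided permutation test is 0.333, so p-values here are those of limma, adjusted over every gene tested.

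The targeted gene was still transcribed in TKO cells, at a lower level. TSPAN14 (chromosome 10, 80454166 to 80533123, plus strand, GRCh38) stood at 189 and 218 TPM in the NT libraries and at 127 and 148 TPM in the TKO libraries. The groups did not overlap, which was the case for 62.1% of all genes tested. The fall from 204 ± 20.5 to 137 ± 14.8 TPM (SD, n = 2) was a log2 change of -0.57 ± 0.10 (SE, adjusted p = 0.0015). NKO libraries held 201 and 179 TPM. The reads over the edited site and the protein were not analysed here, and an mRNA level does not check an edit.

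TSPAN33 and TSPAN15, other members of the TspanC8 group, also fell. TSPAN33 was at 6.37 and 7.91 TPM in NT cells and at 0.193 and 0.116 TPM in TKO cells, a log2 change of -2.81 ± 0.18 (adjusted p = 1.1e-06). TSPAN15 was at 101 and 110 TPM in NT cells and at 36.0 and 54.3 TPM in TKO cells (-1.24 ± 0.21, adjusted p = 0.0013). In NKO cells these genes lay between the values of the other lines, TSPAN33 at 2.36 and 1.84 TPM and TSPAN15 at 57.8 and 84.0 TPM. TSPAN5 (44.4 and 44.0 against 43.3 and 44.7 TPM) and TSPAN17 (56.0 and 63.0 against 56.3 and 58.1 TPM) overlapped between the lines, with log2 changes of -0.01 ± 0.11 and -0.05 ± 0.08. ADAM10 was at 72.9 and 89.5 TPM in NT cells and at 79.2 and 137 TPM in TKO cells, which overlap (0.36 ± 0.22, adjusted p = 0.25). TKO library 3 alone held the high ADAM10 value, and without TKO library 2 the change was 0.75 and was called (adjusted p = 0.011). ADAM17, a related sheddase, was at 16.4 and 16.6 against 14.3 and 18.5 TPM. TIMP1, an inhibitor of metalloproteases, fell from 349 and 352 TPM to 170 and 156 TPM (-1.10 ± 0.08, adjusted p = 1.9e-06). Of the 14 TspanC8 and ADAM genes tested, 2 were called higher and 4 lower, with a median of -0.04; the 2 higher calls became 0 without NT library 2 or NT library 3 and 1 without TKO library 3. Over all genes tested the median was 0.04, and 27.6% were called, 15.2% higher and 12.4% lower.

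HES1, a transcriptional repressor and a classic Notch target, fell from 40.7 and 42.6 TPM in the NT libraries to 9.58 and 9.07 TPM in the TKO libraries, without overlap. This is 0.224 of the NT mean, a log2 change of -2.05 ± 0.12 (adjusted p = 7.1e-07). NKO cells held 19.8 and 25.0 TPM (TKO minus NKO -1.17, adjusted p = 8.4e-05). HES4, another repressor of the family, was at 6.14 and 7.56 TPM in NT cells and at 2.42 and 2.82 TPM in TKO cells (-1.11 ± 0.19, adjusted p = 0.0013). HES4 was lower still in NKO cells, at 0.706 and 1.32 TPM. HES6 (10.8 and 9.63 against 5.61 and 5.51 TPM) and HES7 (8.44 and 6.61 against 3.19 and 2.38 TPM) also fell, by 0.77 and 1.17 on the log2 scale. The HES7 call (adjusted p = 0.016) ended without NT library 2 (adjusted p = 0.11), without TKO library 3 (0.10) and with no filter on low values (0.072). HEY2, a repressor linked to arterial fate, went the other way, from 11.1 and 11.5 TPM to 33.0 and 29.1 TPM (1.38 ± 0.11, adjusted p = 6.1e-06). HEY1 overlapped between the lines (1.91 and 1.94 against 1.5 and 2.82 TPM).

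The windows upstream of HES1, HES4 and HEY2 are shown because these repressors share the core of the RBPJ motif and differed in direction. Each is the 250 bases before the RefSeq start (GRCh38.p14), read 5′ to 3′ on the gene's strand, at chr3:194135898-194136147 (plus strand), chr1:1000098-1000347 (minus strand) and chr6:125749382-125749631 (plus strand). Of these bases 3, 75 and 250 lie inside the gene span of GENCODE 29, which can start further upstream. Capitals mark TGGGAA, or TTCCCA where the motif is on the opposite strand.
HES1: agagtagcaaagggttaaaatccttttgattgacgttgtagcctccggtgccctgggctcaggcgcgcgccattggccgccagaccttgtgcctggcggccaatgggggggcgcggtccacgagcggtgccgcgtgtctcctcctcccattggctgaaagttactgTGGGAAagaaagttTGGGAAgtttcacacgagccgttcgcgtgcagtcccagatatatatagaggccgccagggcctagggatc
HES4: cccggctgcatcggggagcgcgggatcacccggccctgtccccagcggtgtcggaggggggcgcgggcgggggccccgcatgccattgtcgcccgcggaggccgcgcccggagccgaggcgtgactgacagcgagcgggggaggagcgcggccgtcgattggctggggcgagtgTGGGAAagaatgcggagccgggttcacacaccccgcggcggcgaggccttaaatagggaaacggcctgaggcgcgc
HEY2: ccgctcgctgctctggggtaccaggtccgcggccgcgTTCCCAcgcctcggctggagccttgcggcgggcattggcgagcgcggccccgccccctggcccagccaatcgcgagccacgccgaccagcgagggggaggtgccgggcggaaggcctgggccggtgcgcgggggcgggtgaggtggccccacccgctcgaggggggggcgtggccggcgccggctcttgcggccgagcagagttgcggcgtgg
HES1 held 2 copies and the others 1 each. A RefSeq window was found for 9642 of the tested genes, and 19.4% of those windows held TGGGAA on either strand. Among the 14 tested Notch targets with a window, 4 held it: HES1, HES4, HEY2 and CXCR4. With GTGGGAA, which contains TGGGAA, the shares were 5.07% of tested windows and 3 of the 14. A match describes letters only.

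Several Notch targets outside the HES family rose. DLL4, the gene of the ligand, was at 5.09 and 5.41 TPM in NT cells, 13.2 and 16.4 TPM in TKO cells and 5.33 and 5.63 TPM in NKO cells (TKO minus NT 1.33 ± 0.13, adjusted p = 3e-05). SOX17, an arterial transcription factor, rose from 15.5 and 19.2 to 40.8 and 42.4 TPM (1.22 ± 0.13). CCND1, which encodes cyclin D1, rose from 159 and 173 to 284 and 370 TPM (0.96 ± 0.13), and it lies on chromosome 11, whose genes stood higher as a whole (see the chromosome medians). The arterial ephrin EFNB2 rose from 0.274 and 0.344 to 1.92 and 1.59 TPM. CXCR4, a chemokine receptor, was listed at 0 in both NT and both NKO libraries and at 2.35 and 4.14 TPM in the TKO libraries. NRARP, a feedback inhibitor of Notch, did not pass the test at 11.5 and 11.9 against 8.26 and 8.58 TPM (-0.43 ± 0.21, adjusted p = 0.17). GJA4 and GJA5, arterial connexins, and HES5 were listed at 0 in all 4 libraries. Of the 21 Notch targets tested 6 were called higher and 5 lower, with a median of -0.09. The lower ones were HES1, HES4, HES6, HES7 and, outside the HES family, LFNG, whose values are given below. The lower calls were 3 without NT library 2 or without TKO library 3.

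NOTCH1, NOTCH2 and NOTCH4 did not pass the test, and NOTCH3 was below the filter on low values. NOTCH1 was at 17.8 and 19.6 TPM in NT cells and at 17.0 and 22.2 TPM in TKO cells (0.05 ± 0.16, adjusted p = 0.84), and NOTCH2 and NOTCH4 also overlapped between the lines. JAG1, a ligand, was at 42.9 and 44.6 against 30.1 and 37.2 TPM and did not pass (-0.38 ± 0.17, adjusted p = 0.12), although it did after median-of-ratios rescaling (adjusted p = 0.039) or quantile normalisation (adjusted p = 0.044). DLL3, a ligand-like protein without activating function, fell from 3.32 and 3.91 to 1.61 and 1.24 TPM (-0.93 ± 0.19). Of 11 receptor and ligand genes 1 was called higher and 2 lower, with 1 lower without NT library 3 and 2 higher and 1 lower without TKO library 2. LFNG, a fringe glycosyltransferase that modifies Notch receptors, fell from 14.6 and 17.4 to 9.76 and 7.80 TPM (-0.80 ± 0.23, adjusted p = 0.022). This was lost without NT library 3 or TKO library 3 (both adjusted p = 0.14), without NT library 2 (0.052) and with no filter (0.082). NUMB, an endocytic adaptor that restrains Notch, rose from 31.7 and 33.2 to 56.8 and 67.0 TPM (0.91 ± 0.12). PSEN2, a catalytic subunit of gamma-secretase, rose from 9.42 and 7.80 to 18.2 and 18.3 TPM (1.01 ± 0.14). Of the 13 tested gamma-secretase and RBPJ complex genes 2 rose and 0 fell, and of 13 Notch glycosyltransferase and trafficking genes 3 rose and 2 fell. The called shares of these lists were 15.4% and 38.5%, and that of the receptors and ligands was 27.3%. Over all genes tested the share was 27.6%. The 2 raised genes of the first list became 1 without NT library 2, NT library 3 or TKO library 3. The 2 lowered genes of the second became 0 without NT library 2 and 1 without NT library 3 or TKO library 3.

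**Figure D1:**
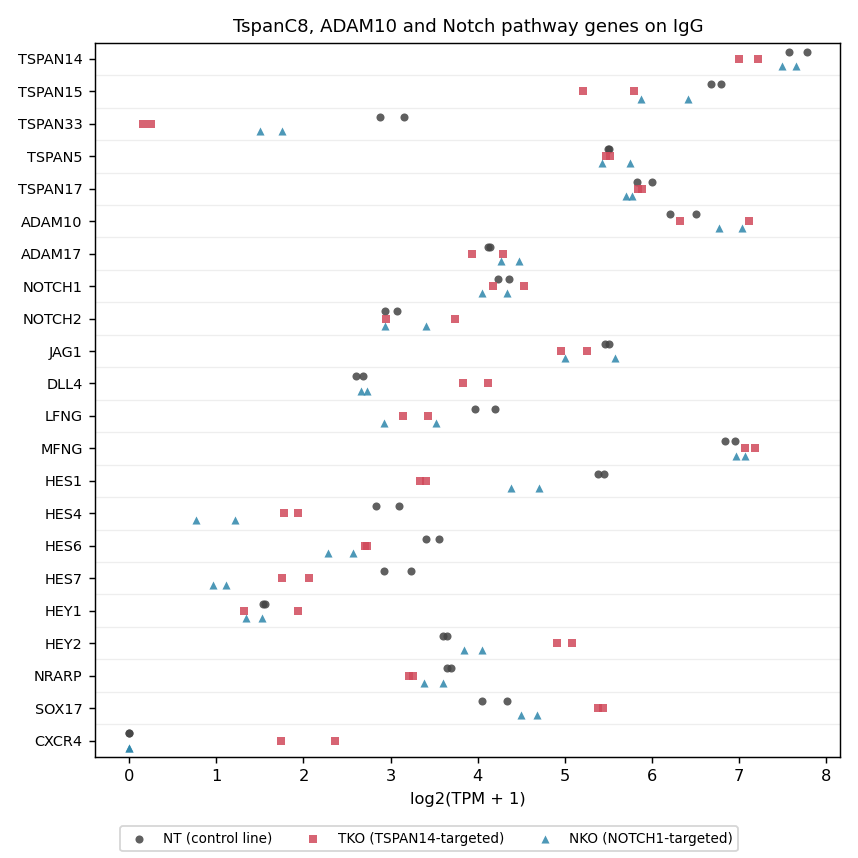
Each point is 1 IgG library (log2(TPM + 1) on the x axis) of NT, TKO or NKO cells, for genes of the TspanC8, ADAM10 and Notch group. TSPAN33 and HES1 lie furthest below NT in TKO cells, at log2 changes of -2.81 and -2.05, while HEY2, DLL4, SOX17 and CXCR4 lie above NT and the NOTCH1 points overlap.

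Beyond this pathway the lines differed widely. Of the 13299 genes 3666 were called (27.6%), 2019 higher in TKO cells (15.2%) and 1647 lower (12.4%). Most differences were small: 2715 were under 2-fold, and the median size was 0.65 on the log2 scale. At least 2-fold differences were found for 546 genes higher and 405 lower, and at least 8-fold differences for 54 and 48. The libraries of the lines did not overlap for 62.1% of all genes tested, and for each of the 3666 called genes. The fit of only the 4 libraries compared called 2245 genes, and without NT library 3 the 12-library fit called 2424.

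The largest rise was that of POSTN, which encodes periostin, a secreted matrix protein of mesenchymal cells (chromosome 13, 37562583 to 37598844). It was at 0.394 and 0.085 TPM in the NT libraries, 300 and 229 TPM in the TKO libraries and 64.1 and 59.5 TPM in the NKO libraries, a TKO minus NT change of 7.74 ± 0.15 (adjusted p = 1.8e-10). TFPI2, a secreted inhibitor of serine proteases, rose from 5.44 and 7.6 to 1220 and 1280 TPM (7.39 ± 0.53, adjusted p = 3e-06), against 14.3 and 47.6 TPM in NKO cells. TFPI2 thus became an abundant transcript, at 192 times the NT mean. AXL, a receptor tyrosine kinase of the TAM family, was at 0.133 and 0.180 TPM in NT cells and at 96.6 and 131 TPM in TKO cells (6.62 ± 0.29), with 36.2 and 57.4 TPM in NKO cells. Its relative MERTK rose from 2.43 and 2.81 to 18.4 and 16.5 TPM (2.35 ± 0.18). MT1E, a metal-binding metallothionein, was listed at 0 and at 0.0888 TPM in NT cells, at 207 and 206 TPM in TKO cells, and at 0 in both NKO libraries (TKO minus NT 7.63 ± 0.13, adjusted p = 9.1e-11).

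High TKO values that the NKO line lacked were also seen for RAB34, a GTPase of ciliary and lysosomal traffic, at 0.310 and 0 TPM in NT cells, 48.1 and 36.8 TPM in TKO cells and 0 and 0.180 TPM in NKO cells. HOXB8, a homeobox factor, was at 4.43 and 3.88, 138 and 134, and 3.99 and 3.55 TPM in the same order. PRRX1, a homeobox factor of mesenchyme, was at 0.547 and 0.848, 29.3 and 33.1, and 0.526 and 1.27 TPM. These genes were called in TKO against NKO (RAB34 adjusted p = 8.6e-08, HOXB8 1.2e-08, PRRX1 1.6e-06). They were grouped here by their low NKO values in the same libraries, so these calls follow in part from that choice. The comparison called 19.6% of all genes tested, 10.9% higher and 8.75% lower in TKO cells. For other raised genes TKO minus NKO did not pass the test. GPAT2, a mitochondrial acyltransferase, was at 0.237 and 0.136 TPM in NT cells, 29.5 and 30.5 TPM in TKO cells and 34.4 and 36.8 TPM in NKO cells (TKO minus NKO -0.24, adjusted p = 0.22). GPX3, a secreted glutathione peroxidase, was at 0.277 and 1.34, 52.7 and 43.6, and 69.2 and 65.8 TPM (TKO minus NKO -0.48, adjusted p = 0.16).

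DNER, a Notch-like transmembrane protein of neurons, had the largest fall (chromosome 2, 229357629 to 229714558). It was at 63.1 and 63.9 TPM in the NT libraries and at 0 and 0.0381 TPM in the TKO libraries, a log2 change of -5.98 ± 0.17 (adjusted p = 3.6e-09), with 21.7 and 30.4 TPM in NKO cells. Neuronal and glial markers summed to 510 and 600 TPM in NT cells and to 237 and 274 TPM in TKO cells, and their part in the fall of DNER was not tested. RGS5, a regulator of G protein signalling best known from pericytes, fell from 136 and 144 to 2.55 and 2.85 TPM (-5.25 ± 0.12, adjusted p = 1e-09). TFF3, a trefoil peptide, fell from 238 and 241 to 11.1 and 3.59 TPM (-5.01 ± 0.48). VAMP8, a SNARE protein of late endosomes and secretory granules, fell from 60.1 and 49.4 to 0.240 and 0 TPM (-5.64 ± 0.16) and stayed at 41.2 and 46.2 TPM in NKO cells. SCUBE1, a secreted and surface protein of endothelium and platelets, fell from 38.7 and 49.1 to 0.0629 and 0.161 TPM (-5.33 ± 0.20), against 41.6 and 51.5 TPM in NKO cells. PDPN, the lymphatic glycoprotein podoplanin, moved apart in the edited lines, from 169 and 180 TPM in NT cells to 8.88 and 15.7 TPM in TKO cells (-3.77 ± 0.30) and 364 and 555 TPM in NKO cells. COLEC10, a collectin, was low in both edited lines, at 43.2 and 41.6 TPM in NT cells, 0.150 and 0.250 TPM in TKO cells and 0.561 and 0.802 TPM in NKO cells.

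**Figure D2:**
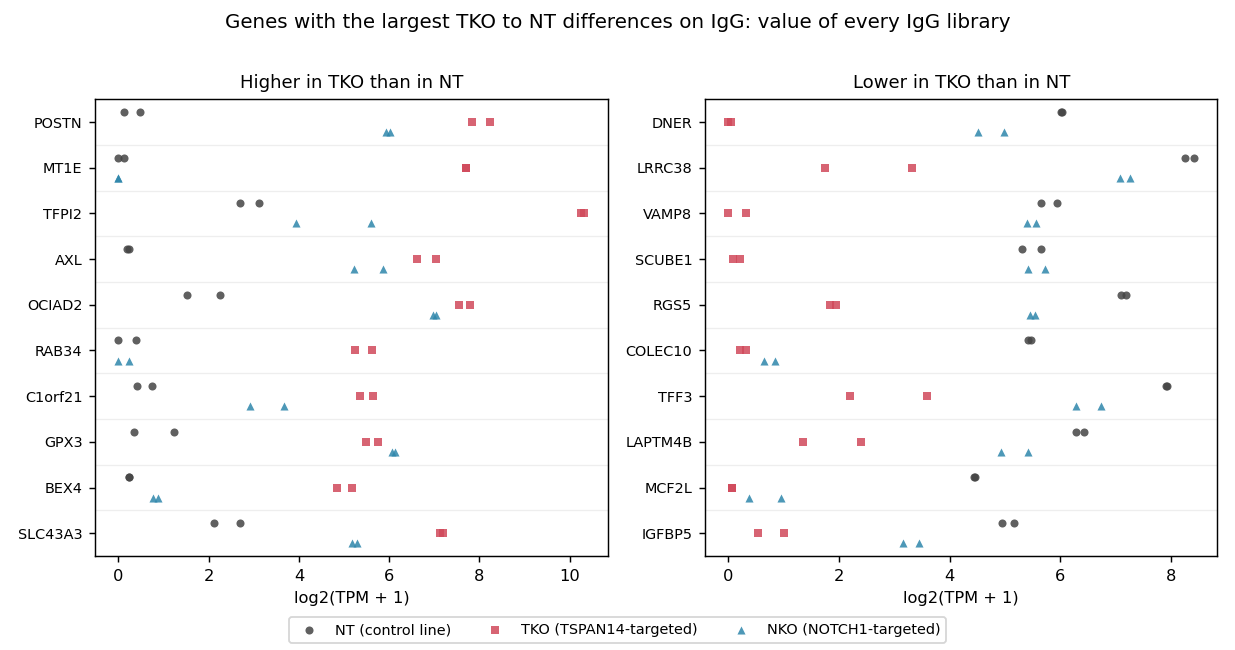
The 10 genes per direction with the largest differences among those called, coding for protein, with a mean of at least 5 TPM in the higher line; each point is 1 IgG library on a log2(TPM + 1) axis. NT and TKO points are separate for every gene, while NKO points lie with TKO for some (GPX3, COLEC10), with NT for others (MT1E, RAB34, VAMP8, SCUBE1) and between them for DNER and RGS5.

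Some genes passed from near absence to presence. By a rule chosen after the values were seen, below 1 TPM in both libraries of a line and at least 10 TPM in both of the other, 26 genes were gained in TKO cells and 29 were lost. The 26 gained genes code for protein, and the DLL4 libraries of the same lines met the same rule for 20 of them. They include LOX, which cross-links collagen (0.508 and 0.523 against 16.7 and 29.5 TPM), RAMP2, a co-receptor for adrenomedullin (0 and 0 against 11.8 and 15.7 TPM), and IGFBP1, an IGF-binding protein (0.186 and 0.187 against 17.1 and 18.4 TPM). Of the 29 lost genes 26 code for protein, and the rule was met on DLL4 for 17. They include PPARG, the lipid-sensing nuclear receptor (12.3 and 11.5 against 0.0516 and 0.147 TPM), TBX3, a T-box repressor (11.2 and 10.7 against 0.0264 and 0.0437 TPM), and IGF2, a growth factor (17.5 and 20.7 against 0.442 and 0.709 TPM). The 3 lost genes that do not code for protein, RNA5SP411, RNA5SP412 and RNA5SP414, are 5S pseudogenes of chromosome 16. Those pseudogenes, the lost MAGEA2B and MAGEA3 and the metallothioneins resemble other copies, so their assignment is uncertain.

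The differences could be set against the libraries on DLL4, which come from the same lines but are other libraries. The variance of each gene, pooled over all 12 libraries, is shared by both comparisons. On DLL4, 3543 genes were called between TKO and NT cells (26.6%, with 16.1% higher and 10.5% lower). Of the 3666 genes called on IgG, 2275 were called in the same direction on DLL4, which is 62.1% of the IgG calls and 64.2% of the DLL4 calls. A further 20 were called in opposite directions, among them PTGS2, the inducible cyclooxygenase, at 1.30 on IgG and -1.39 on DLL4. Of the genes that differed by at least 2-fold on IgG, 486 of 546 higher ones (89.0%) and 349 of 405 lower ones (86.2%) were called the same way on DLL4. POSTN (8.19), TFPI2 (7.42), AXL (5.94), DNER (-6.61) and RGS5 (-5.66) had TKO minus NT differences on DLL4 near those on IgG.

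**Figure D3:**
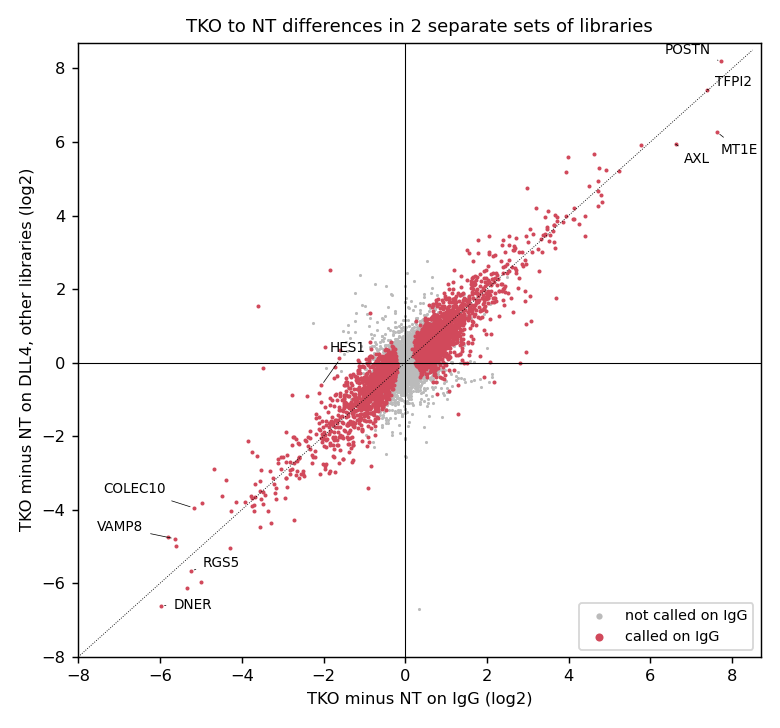
TKO minus NT differences (log2) of the 13299 tested genes on IgG (x axis) and in the separate DLL4 libraries (y axis), with genes called on IgG in red and the dotted line at equal values. Of the genes with at least 2-fold differences on IgG, 536 of 546 higher and 398 of 405 lower ones had the same sign on DLL4, and HES1, at -2.05 and -0.62, and HEY2, at 1.38 and 0.08, are among those away from the line.

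The difference between the lines itself depended on the coating for few genes. The test of that dependence called 70 genes (0.526%), 26 with a higher (0.196%) and 44 with a lower (0.331%) TKO minus NT difference on DLL4. This count fell to between 8 and 28 when any NT library, any DLL4 library or TKO library 3 on IgG was left out, and was 76 without TKO library 2 on IgG. HES1 was among the 70 (adjusted p = 0.0075). Its values of 81.2 and 78.9 TPM in NT cells and 50.3 and 53.6 TPM in TKO cells on DLL4 were closer together than on IgG (difference -0.62 ± 0.12 against -2.05 ± 0.12). HEY2 was raised in TKO cells on IgG (1.38) and near equal on DLL4 (0.08), at 58.1 and 54.8 against 63.3 and 56.4 TPM (adjusted p = 0.0075). MFNG, another fringe enzyme, showed the reverse pattern. It did not pass the test on IgG, at 113 and 123 against 144 and 133 TPM (0.22 ± 0.09, adjusted p = 0.10), but on DLL4 it was at 31.5 and 27.6 TPM in NT cells and 149 and 132 TPM in TKO cells (2.21 ± 0.09; test of the dependence, adjusted p = 0.0002).

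Genes of chromosomes 11, 18 and 21 stood higher in TKO cells along most of their length. The median TKO minus NT difference over their tested genes was 0.51 for chromosome 11 (732 genes), 0.43 for chromosome 18 (179 genes) and 0.44 for chromosome 21 (136 genes). On the other 20 chromosomes the medians lay between -0.07 and 0.06. On chromosome 11, 485 genes were called higher (66.3%), on chromosome 18, 101 (56.4%), and on chromosome 21, 73 (53.7%), against 8.40% to 13.5% on each of the others. Each TKO library showed this separately, with medians of 0.49 and 0.53 for chromosome 11, 0.43 and 0.45 for chromosome 18, and 0.46 and 0.44 for chromosome 21. The DLL4 libraries gave medians of 0.54, 0.44 and 0.46, and NKO minus NT on IgG gave 0.05, 0.07 and 0.05. In windows of 40 neighbouring genes the medians ran from 0.39 to 1.26 on chromosome 11, from 0.39 to 0.57 on chromosome 18 and from 0.34 to 0.52 on chromosome 21. The window of 1.26 spans chromosome 11, 102396332 to 112120013 (GRCh38), where the median of NKO minus NT was 0.88. These 3 chromosomes hold 705 of the called genes, 659 of them higher. Without them 2961 genes were called, 1360 higher and 1601 lower, so that higher genes made up 45.9% of the calls in place of 55.1%. Whether the chromosomes differ in copy number between the lines was not tested. Raised genes of the gene lists that are named below and lie on them are marked, while genes named outside the lists are not.

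**Figure D4:**
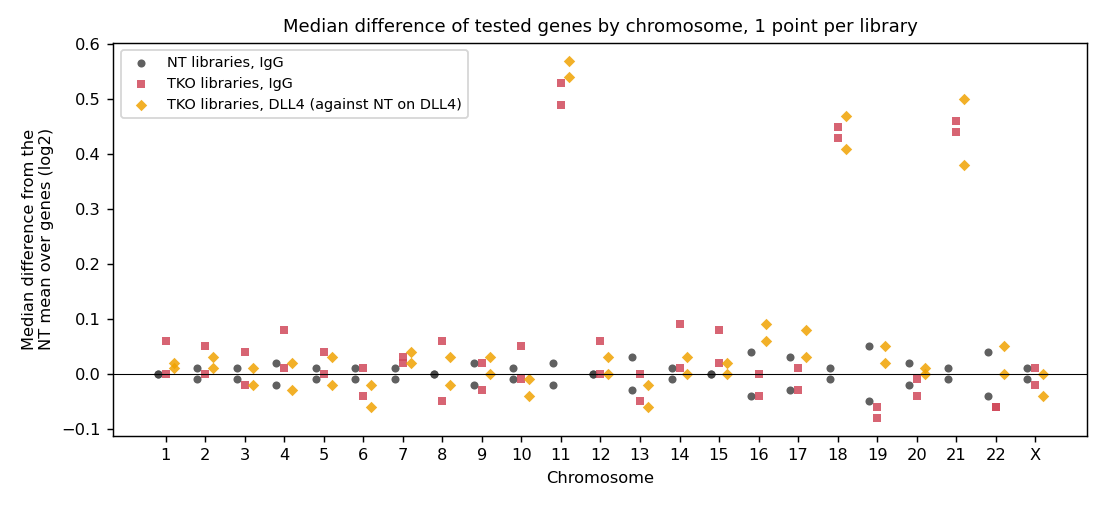
Median over the tested genes of each chromosome of the difference from the NT mean of the same coating (log2, y axis), with 1 point per library. TKO points for chromosomes 11, 18 and 21 lie at 0.43 or above on IgG, and NT points and TKO points of the other chromosomes lie near 0.

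Endothelial markers were present in both lines. Of 12 endothelial markers, among them PECAM1, CDH5, KDR and TIE1, all were tested and 3 were called, all higher: VWF, ERG and ROBO4, with ERG on chromosome 21 and ROBO4 on chromosome 11. ROBO4 lost its call with only the 4 libraries compared (adjusted p = 0.051), and without TKO library 3 the markers gave 2 higher and 1 lower. Their summed TPM was 3080 and 3410 in NT cells and between 3130 and 3440 in TKO cells. VWF, the von Willebrand factor, rose from 10.5 and 6.63 to 27.3 and 33.0 TPM (1.73 ± 0.30). ERG rose from 60.9 and 62.6 to 79.4 and 109 TPM, and lost its call without TKO library 3 (adjusted p = 0.054) and with only the 4 libraries compared (0.079). Of the 34 tested genes of endothelial identity and junctions 7 rose and 4 fell, or 5 and 2 with only the 4 libraries compared. The called shares were 32.4% for this list and 25.0% for the 12 markers, near the 27.6% of all genes tested. KLF2, a factor of the response to flow, rose from 45.6 and 52.9 to 116 and 116 TPM (1.23 ± 0.17).

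Subtype genes split. Of 23 arterial genes 8 rose and 4 fell, with a median of 0.00. BMX, an arterial tyrosine kinase, rose from 4.33 and 4.37 to 22.2 and 19.6 TPM (2.03 ± 0.12) and MGP, an inhibitor of calcification and BMP, from 6.41 and 4.60 to 27.8 and 21 TPM (1.97 ± 0.16). Of 10 venous genes 2 rose (1 without NT library 3 or TKO library 3) and 3 fell, among them EPHB4, the venous ephrin receptor, from 76.8 and 91.8 to 43.0 and 51.2 TPM (-0.83 ± 0.11). Of 8 lymphatic genes 2 rose and 4 fell. Besides PDPN and TFF3, LYVE1, a hyaluronan receptor, fell from 73.4 and 64.3 to 42.1 and 46.4 TPM although it lies on chromosome 11, and MMRN1 rose from 8.52 and 7.59 to 66.7 and 70.8 TPM (2.95 ± 0.14). The lymphatic master regulator PROX1 was below the filter on low values. Of 18 tip cell and angiopoietin genes 5 rose and 3 fell (1 without NT library 3): ANGPT2, a destabilising ligand of TIE2, rose from 57.3 and 51.5 to 169 and 196 TPM (1.73 ± 0.10) while it was at 33.0 and 30.3 TPM in NKO cells, and APLN, the ligand apelin, rose from 261 and 282 to 501 and 644 TPM.

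Collagen IV and fibronectin fell while several other matrix genes rose. COL4A1, a chain of collagen IV, was at 486 and 431 TPM in NT cells and at 93.9 and 101 TPM in TKO cells (-2.22 ± 0.11, adjusted p = 1.6e-07), and its partner COL4A2 fell from 559 and 571 to 161 and 177 TPM (-1.74 ± 0.10). FN1, fibronectin, fell from 755 and 583 to 243 and 225 TPM (-1.50 ± 0.17). SULF2, an extracellular sulfatase, fell from 336 and 405 to 32.2 and 31.8 TPM (-3.49 ± 0.17), with 382 and 436 TPM in NKO cells. Among the raised matrix genes besides POSTN, EFEMP1, the matrix glycoprotein fibulin-3, rose from 4.39 and 2.26 to 48.6 and 52.4 TPM (3.62 ± 0.24). Of 45 matrix genes tested 16 rose and 10 fell, 4 of the 16 being on chromosomes 11, 18 or 21. Of 29 mesenchymal and contractile genes 11 rose and 7 fell. The summed fibroblast markers stood beside this at 8.05 and 8.14 TPM in NT cells and 11 and 11.7 TPM in TKO cells, with LUM and DPT listed at 0. MYL9, a myosin light chain, rose from 7.68 and 10.1 to 105 and 103 TPM (3.42 ± 0.13), and CCN1 and CCN2, matricellular targets of YAP, rose from 126 and 138 to 277 and 295 TPM and from 336 and 374 to 642 and 716 TPM. SNAI1, a repressor of epithelial genes, fell from 26.1 and 28.1 to 10.5 and 10.7 TPM (-1.28 ± 0.11).

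Antagonists of activin and BMP were among the raised genes. FST, the activin antagonist follistatin, was at 58.5 and 56.9 TPM in NT cells and 353 and 269 TPM in TKO cells (2.40 ± 0.15, adjusted p = 1.1e-06). BMPER (0.135 and 0.174 against 6.70 and 5.98 TPM) and NOG (1.43 and 1.79 against 10.3 and 11 TPM), which bind BMPs, rose by 2.67 ± 0.21 and 2.17 ± 0.22. BMP2 itself rose from 14.1 and 16.4 to 47.9 and 54.1 TPM, while ID1, a BMP target, fell from 217 and 221 to 101 and 88.5 TPM (-1.20 ± 0.13). Of 31 genes of activin, TGF-beta and BMP signalling 8 rose and 3 fell, or 5 and 3 with only the 4 libraries compared. In the IGF axis 6 of 16 rose (3 without NT library 2 or TKO library 3) and 3 fell: with the loss of IGF2, IGFBP5 fell from 34.8 and 29.7 to 1.00 and 0.450 TPM, IGFBP3 rose from 3.28 and 2.20 to 7.94 and 8.26 TPM, and IRS2, an adaptor of insulin receptors, rose from 0.0127 and 0.00658 to 2.04 and 2.62 TPM.

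In the coagulation and vasoactive list 10 of 22 rose and 6 fell. These counts were 5 and 4 without NT library 2, 6 and 5 without NT library 3, and 5 and 5 with only the 4 libraries compared. PLAT, tissue plasminogen activator, rose from 1530 and 1720 to 2850 and 2930 TPM (0.83 ± 0.07), with 1010 and 940 TPM in NKO cells. PLAU, urokinase, fell from 230 and 214 to 118 and 118 TPM (-0.90 ± 0.10). The protease-activated receptor genes F2RL1 (10.4 and 10.4 against 2.57 and 1.90 TPM), F2RL2 (4.92 and 5.37 against 1.52 and 1.43 TPM) and F2RL3 (21.3 and 22.7 against 5.74 and 7.24 TPM) fell together, by 1.83, 1.31 and 1.63 on the log2 scale. SERPINE2, an inhibitor of thrombin and plasminogen activators, rose from 29 and 31 to 91.6 and 86.3 TPM (1.54 ± 0.10). Of 19 matrix protease and plasminogen genes 8 rose and 4 fell, with a median of 0.38.

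**Figure D5:**
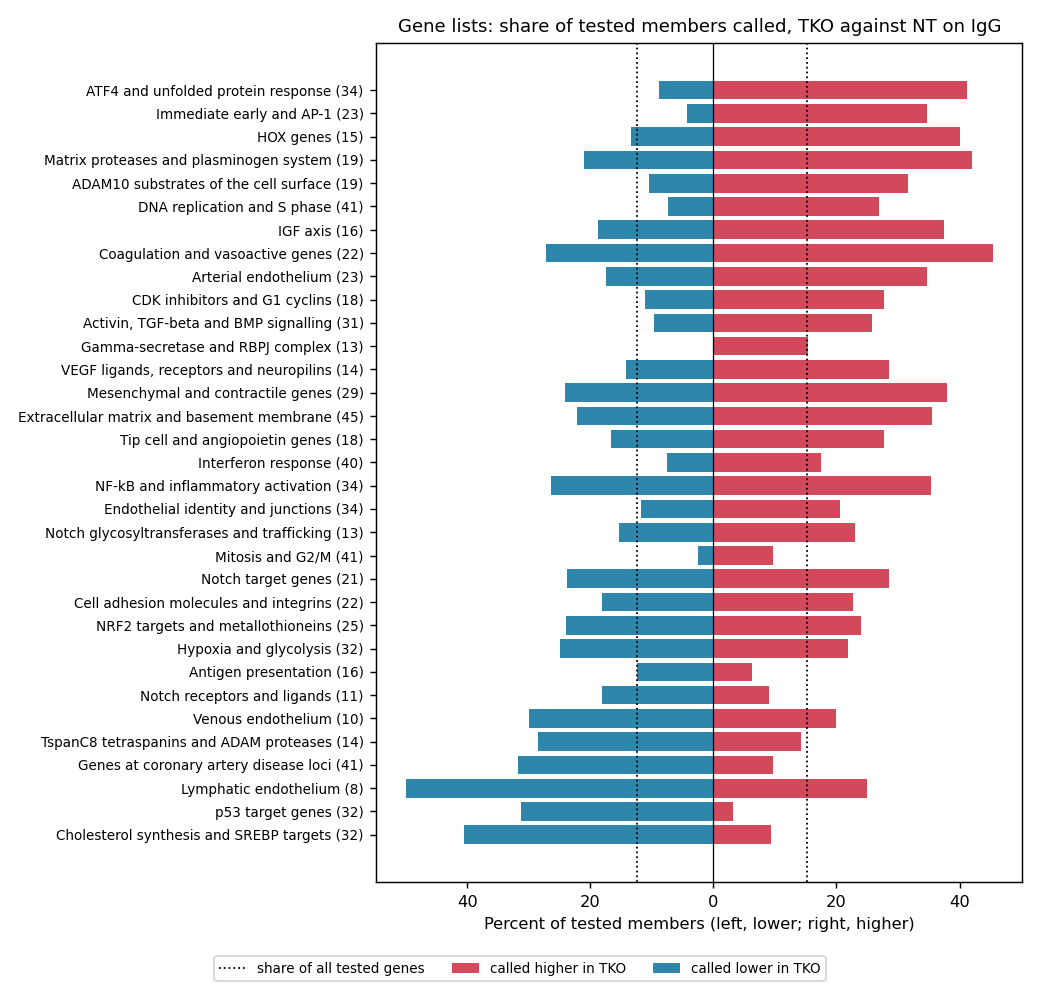
For each list, the percent of its tested members (number in brackets) called higher (right) or lower (left) in TKO cells on IgG, with dotted lines at the 15.2% and 12.4% of all tested genes. The cholesterol, p53 and coronary locus lists lie mostly to the left, and the ATF4 and immediate early lists mostly to the right, and several of these counts fall when 1 library is left out.

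Inflammatory genes moved both ways, with 12 of 34 higher and 9 lower, or 10 and 9 with only the 4 libraries compared. IL32, a cytokine gene, fell from 594 and 619 to 91.9 and 85.8 TPM (-2.76 ± 0.09, adjusted p = 1.2e-08) and CSF3, granulocyte colony-stimulating factor, from 45.9 and 44.2 to 13.7 and 10.5 TPM (-1.82 ± 0.15). IL1RL1, the receptor of IL33, rose from 2.46 and 2.51 to 41.2 and 34.2 TPM (3.47 ± 0.23), and BCL2A1, a survival gene driven by NF-kB, from 4.48 and 4.68 to 46.1 and 34.8 TPM (2.88 ± 0.17). RELA, a subunit of NF-kB, rose from 75.0 and 88.6 to 143 and 154 TPM and lies on chromosome 11. Of 40 interferon response genes 7 rose and 3 fell, 3 of the 7 on chromosomes 11, 18 or 21. The called share was 25.0% for this list and 18.8% for the antigen presentation list below. Neither exceeds the 27.6% of all genes tested. BST2, the restriction factor tetherin, rose from 29.3 and 35.5 to 170 and 140 TPM (2.22 ± 0.14) and ISG15, a ubiquitin-like modifier, fell from 50.1 and 56.8 to 26.6 and 22.3 TPM (-1.10 ± 0.20). Of 16 antigen presentation genes 1 rose and 2 fell, or 0 and 1 without NT library 2, NT library 3 or TKO library 3. Summed leukocyte markers were lower in TKO cells, at 205 and 215 against 321 and 342 TPM, with PTPRC under 1 TPM, and their part was not tested.

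Of 32 cholesterol synthesis genes 13 fell and 3 rose, all 3 on chromosomes 11, 18 or 21, with a median of -0.16. The lower calls were 5 without NT library 2, 6 without NT library 3, 6 without TKO library 2 (with 5 higher), 8 without TKO library 3 and 5 with only the 4 libraries compared. INSIG1, a brake on SREBP processing and itself an SREBP target, fell from 82.4 and 83.9 to 37.0 and 46.3 TPM (-0.99 ± 0.11, adjusted p = 7.2e-05), and MVK, mevalonate kinase, fell from 37.7 and 36.6 to 21.3 and 23.4 TPM (-0.71 ± 0.10). The NKO values of INSIG1 were 54.8 and 49.6 TPM. The p53 target list had 10 of 32 lower and 1 higher, with a median of -0.10. There were 6 lower with only the 4 libraries compared and 8 with no filter on low values. Leaving out any 1 of the 4 libraries also reduced the lower calls, and gave list medians from -0.18 to -0.05. CDKN1A, the cell cycle inhibitor p21, fell from 161 and 166 to 115 and 120 TPM (-0.48 ± 0.09, adjusted p = 0.0021), and TP53I3, an oxidoreductase, from 110 and 110 to 74.2 and 74.5 TPM (-0.56 ± 0.08). The raised gene was DDB2, a DNA repair factor on chromosome 11.

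Genes of the ATF4 and unfolded protein response were raised in 14 of 34 and lowered in 3, with a median of 0.24. The raised genes were 8 without NT library 2, 9 without NT library 3 (with 1 lowered), 9 without TKO library 3 and 6 with only the 4 libraries compared. ATF4, the transcription factor, rose from 348 and 346 to 473 and 441 TPM (0.39 ± 0.07, adjusted p = 0.0016), CHAC1, a glutathione-degrading enzyme, from 7.91 and 8.99 to 20.8 and 20.4 TPM (1.20 ± 0.16), and ASNS, asparagine synthetase, from 41.4 and 33.4 to 58.1 and 63.5 TPM (0.69 ± 0.12). NKO cells held like amounts of these transcripts (ATF4 440 and 440 TPM, CHAC1 20.8 and 19.3 TPM, ASNS 61.0 and 58.2 TPM). On DLL4 the same list gave 5 higher and 7 lower, with a median of -0.09. DDIT4, an inhibitor of mTORC1, fell from 73.3 and 72.3 to 19.3 and 23.2 TPM (-1.73 ± 0.23).

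Replication genes were raised in 11 of 41 and lowered in 3, with a median of 0.02, and on DLL4 in 23 of 41 and 0. Over all genes tested 15.2% were higher and 12.4% lower on IgG, and 16.1% and 10.5% on DLL4. The called share of the replication list on IgG was 34.1%. On IgG the counts were 6 and 2 without NT library 2, 8 and 0 without NT library 3, 4 and 0 without TKO library 3, and 6 and 0 with only the 4 libraries compared. TYMS, thymidylate synthase, rose from 111 and 108 to 218 and 205 TPM (0.94 ± 0.07) and lies on chromosome 18, and E2F1, an activator of S phase genes, rose from 25.7 and 30.7 to 44.6 and 44.9 TPM (0.65 ± 0.10). Of 41 mitotic genes 4 were called higher and 1 lower, a share of 12.2% against 27.6% of all genes tested. With only the 4 libraries compared the mitotic counts were 2 and 0. Of 23 immediate early and AP-1 genes 8 rose and 1 fell, with a median of 0.32. The counts were 3 and 1 without NT library 2, 7 and 0 without NT library 3, 4 and 0 without TKO library 3, and 5 and 0 with only the 4 libraries compared. FOSL1, an AP-1 subunit, rose from 128 and 150 to 324 and 298 TPM (1.16 ± 0.13) and lies on chromosome 11. Of 32 hypoxia and glycolysis genes 7 rose and 8 fell, with 3 rising without NT library 2 or TKO library 3 and 4 without NT library 3. With only the 4 libraries compared 4 rose and 3 fell. Among 18 CDK inhibitors and G1 cyclins 5 rose and 2 fell, among 14 VEGF ligands, receptors and neuropilins 4 and 2, and among 22 adhesion molecules and integrins 5 and 4. For the CDK list 3 rose without TKO library 3 and 1 fell without NT library 3, for the VEGF list the counts were 2 and 0 without NT library 3 or TKO library 3 and 3 and 1 without NT library 2, and for adhesion 2 fell without NT library 2 or NT library 3.

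Of 25 NRF2 targets and metallothioneins 6 rose and 6 fell. Among metallothioneins MT1A (0 and 0 against 6.95 and 7.93 TPM) and MT1M (0 and 0 against 6.44 and 8.34 TPM) appeared with MT1E, whereas MT1X fell from 61.7 and 59.6 to 28.1 and 26.0 TPM (-1.13 ± 0.12). MT1A was also present in NKO cells, at 18.5 and 11.8 TPM. In the HOXB cluster HOXB3 and HOXB5 to HOXB9 were called higher, HOXB9 from 20.5 and 21.1 to 47.2 and 62.8 TPM (1.35 ± 0.13). HOXB4 fell from 15.9 and 17.6 to 11.6 and 10.9 TPM (-0.53 ± 0.13) and HOXB13 from 3.43 and 3.98 to 0.332 and 0.250 TPM (-1.86 ± 0.21). Of 15 tested HOX genes 6 rose and 2 fell (1 without NT library 3 or TKO library 3).

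Of 41 tested genes at coronary artery disease loci, a list that contains TSPAN14, 13 were lower and 4 higher, with a median of -0.19. The lower calls were 7 without NT library 3, 9 without NT library 2 or TKO library 2 and 8 with only the 4 libraries compared. Besides the collagen IV genes, FN1 and VAMP8, ANGPTL4, an inhibitor of lipoprotein lipase, fell from 82.5 and 90.3 to 8.26 and 7.62 TPM (-3.29 ± 0.15, adjusted p = 1.2e-07), with 42.3 and 57.2 TPM in NKO cells. SWAP70, a signalling protein of chromosome 11, rose from 64.6 and 66.4 to 137 and 166 TPM (1.19 ± 0.14). Of 19 tested surface substrates of ADAM10, 6 rose and 2 fell, 4 of the 6 on chromosomes 11, 18 or 21. CD44, a hyaluronan receptor of chromosome 11, rose from 241 and 278 to 405 and 541 TPM (0.85 ± 0.17), and EFNA5, an ephrin, fell from 11.6 and 12.6 to 5.86 and 7.21 TPM (-0.80 ± 0.15).

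Some markers of other cell types also moved. Of 23 leukocyte markers 6 were tested, 1 was called higher and 3 lower. Most of their sum came from LAPTM5, a lysosomal protein (257 and 266 against 137 and 139 TPM), while PTPRC, the defining marker CD45, lay between 0.292 and 0.744 TPM and CD2, MS4A1 and TYROBP were listed at 0. Of 11 neuronal and glial markers 4 were tested and called lower, against 2 without NT library 3 or TKO library 2. GFAP was called with all libraries (adjusted p = 0.028) and lost its call without any 1 of the 4 (0.075 to 0.13), and MBP lost its call without NT library 3 (0.097) or TKO library 2 (0.054). Most of the sum came from TUBB3, a tubulin (495 and 582 against 268 and 230 TPM). Of 15 epithelial markers 5 were tested and 3 rose, KRT19 from 182 and 223 to 753 and 584 TPM (1.71 ± 0.35), with sums of 731 and 847 against 1110 and 1370. EPCAM, their defining marker, did not exceed 0.167 TPM. KRT7, 1 of the 3 that rose, lost its call with no filter on low values (adjusted p = 0.12) and with only the 4 libraries compared (0.11). Its call also ended without NT library 2, NT library 3 or TKO library 2. Of 12 fibroblast markers 5 were tested and only COL1A2 was called, at 0.146 and 0.0269 against 2.74 and 2.88 TPM. Of 11 smooth muscle and pericyte markers 3 were tested, ACTA2 and SMTN called higher and RGS5 lower, with sums of 236 and 259 against 174 and 193. ACTA2 lost its call without NT library 2 (adjusted p = 0.10) or TKO library 2 (0.061). Of 12 erythroid and megakaryocyte markers 1 was tested and not called. The 13 mitochondrially encoded genes summed to 75400 and 81800 TPM in NT cells and to 68700 and 80200 TPM in TKO cells, which overlap. In bulk RNA fewer cells of a kind and less RNA per cell cannot be told apart, and the part of these markers in the results above was not tested.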

How the data were processed

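Polyadenylated RNA was measured in 12 libraries, and the 4 on IgG from NT and TKO cells are the subject here. The authors deposited TPM per gene symbol. Per the submitters' processing notes kallisto, edgeR and hg38 were used, with no further detail in the sources used here. The columns of NT and TKO cells are numbered 2 and 3 and the labels' replicates 1 and 2, so columns were assigned to groups only.

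Genes with at least 1 TPM in at least 2 libraries (13299 of 35587 symbols) were kept. Their log2(TPM + 1) values were fitted in limma (version 3.58.1, R version 4.3.3) with a mean for each of 6 groups, which left 6 residual degrees of freedom, or 10.8 after moderation along a trend of variance on level. Tests were two-sided, and p-values were adjusted by the Benjamini-Hochberg method across the 13299 genes. Tested on simulated data for TKO against NT on IgG, the fit found 95% of 100 genes simulated with a log2 change of 1, and 100% of 100 simulated with 2, and 7.14% of its calls were false (15 calls, with 13299 genes fitted). The genes given a change were drawn only from those with a mean log2(TPM + 1) above 2. Recovery of genes with low TPM was therefore not tested. Noise was normal at the fitted spread and few genes were changed, so the shares hold for that setting and may not carry over to the data. Positions come from GENCODE 29, where 35389 symbols were matched and 198 were not.

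The named genes are TSPAN14, NOTCH1, ADAM10, the TspanC8, ADAM and Notch lists, the 20 largest changes per direction among called protein-coding genes with at least 5 TPM and no overlap, up to 6 called genes of each other list by p, up to 6 per direction that depend on the coating, and KPNA2P2. These and the 42 lists were chosen with earlier results of these data known. A gene that the rule selects is not reported here. Other genes named were chosen after their values were seen. Genes named by size of change or by p were picked from these same values. How well they keep their calls under the alternatives is therefore set in part by that choice. The alternatives were another pseudocount, other filters and scalings, the replicate block, no variance trend, a smaller fit and leaving out libraries. Leaving out the genes of chromosomes 11, 18 and 21 was added after the data were seen.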

Additional observations from a re-analysis of the deposited data

Results flagged for a closer look

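For 21 of the named genes the TKO minus NT difference itself differed between the coatings by the test of that dependence (limma, adjusted over all genes). Up to 6 of them per direction were named because this test called them, so the count of 21 is partly set by that choice. Over all 13299 genes the test called 70 (0.526%). Each value here is the difference on DLL4 minus that on IgG, on the log2 scale. The value was negative for the phosphatase ACP5 (-2.50), the metalloprotease ADAM19 (-1.65), ARHGEF17 (-1.63), ASNS (-1.24), the CDK inhibitor CDKN2B (-1.55), the thrombin receptor gene F2RL2 (-1.38), the connexin GJA4 (-2.53), HEY2 (-1.30), the cytokine IL33 (-2.67), MT1E (-1.36), NEDD9 (-1.34), PLAU (-0.83) and SNAI1 (-0.88). It was positive for AGFG2 (0.87), AKR1B1 (0.68), the mitotic activator CDC20 (0.62), HES1 (1.43), MFNG (1.99), MT1X (0.95), the phosphodiesterase PDE2A (1.09) and PDGFB (0.90). GJA4 was listed at 0 in all IgG libraries. ASNS, ARHGEF17, PDGFB and CDC20 were called in opposite directions on the coatings, ASNS at 0.69 on IgG and -0.54 on DLL4, ARHGEF17 at 0.78 and -0.85, PDGFB at -0.35 and 0.55, and CDC20 at -0.24 and 0.38. On IgG the CDC20 call ended without NT library 2, NT library 3 or TKO library 3 and under 3 other settings (adjusted p = 0.093 to 0.31). The PDGFB call on IgG ended without NT library 3 (0.13), without TKO library 2 (0.082) and with only the libraries compared (0.083).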

How the results depend on the processing

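Of the 222 named genes called, 183 stayed called under every alternative run, none of the 40 size-rule genes lost its call, and no called gene reversed. The count of 3666 calls became 2245 with only the libraries compared and ranged from 2424 to 3436 when 1 library was left out. On DLL4, where 3543 genes were called, leaving out 1 library gave 2315 to 2653. TKO against NKO on IgG gave 2612 calls, 689 with only the libraries compared and 1812 to 2123 with 1 library left out. The dependence on the coating gave 70 calls, 108 with a mean of at least 5 TPM, 141 after quantile normalisation and 8 to 76 with 1 library left out. Higher genes made up 55.1% of the 3666 calls, 47.6% after quantile normalisation, 50.4% after median-of-ratios rescaling and 60.6% with KPNA2P2 left out, and the median of all genes moved from 0.036 to -0.02, 0 and 0.071. The column number as a replicate block gave 3793 calls in place of 3666, 3653 on DLL4, 2139 against NKO and 93 for the dependence on the coating. The numbers did not pair the libraries: same-numbered deviations correlated at 0.09, 0.07, 0 and 0.016. TPM carry no depth, so precision rests on the spread between the 2 libraries of each group, pooled over all 12 libraries.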

Other observations

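Genes outside the lists also stood apart by size. STEAP1, a metalloreductase, was at 1.21 and 1.19 TPM in NT cells and at 53.4 and 37.9 TPM in TKO cells. GIMAP7, a GTPase best known from lymphocytes, was listed at 0 in both NT libraries and at 26.1 and 21.2 TPM in the TKO libraries. TNFSF4, the ligand OX40L, was at 0.308 and 0.372 against 18 and 27.5 TPM. Among the lost genes the lymphocyte activation marker CD69 was at 19.6 and 17.0 against 0.670 and 0.233 TPM, and TNFRSF6B, a decoy receptor, at 11.6 and 15.5 TPM against 0 in both TKO libraries. FOXF1, a forkhead factor, fell from 40.3 and 40.6 to 2.94 and 1.57 TPM.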
